A study of Mus musculus with 18 samples.

Results

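The Nuclear factor I family of transcription factors has 4 genes in the mouse, Nfia, Nfib, Nfic and Nfix, and all 4 of them, out of 47728 genes in the deposited bulk counts, are described here. They were taken by name as a whole family, and the family was chosen with earlier results of these data known. All 4 passed the filter on low counts that left 17571 genes to test. RNA was sequenced in bulk from 15 mouse libraries, 3 in each of 5 groups. The groups iPax3 and iPax7 were myogenic progenitors derived from embryonic stem (ES) cells, sorted from embryoid bodies as Vcam1-positive and Flk1-negative cells and kept for 3 passages with doxycycline and bFGF. Emb and Fet were myoblasts of My5Cre Rosa26YFP mice taken at E10.5 and E14.5, days of gestation, in which cells that have expressed the Cre carry YFP, so their descendants carry it too. Neo was labelled neonatal satellite cells, from hindlimb muscles of Pax7-ZsGreen mice at postnatal day 3. Droplet single-cell libraries were made from iPax3 cells and from Pax7-ZsGreen cells of adult tibialis anterior muscle, aged 3 months. Nothing in the labels says that replicates came from separate cultures or animals, so p-values measure the spread between these libraries, which may be technical. Engrafted and re-isolated cells are not analysed here.

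Nuclear factor I proteins bind DNA as dimers and can raise or lower transcription of their targets. In skeletal muscle Nfix is known as a regulator that fetal myoblasts switch on and that moves them from the embryonic to the fetal programme of muscle genes. Nfia is studied in brown fat and in muscle, Nfib in lung and brain, and Nfic in tooth development, and all of them are expressed in many tissues besides muscle. Nfia (ENSMUSG00000028565) lies on chromosome 4 from 97772734 to 98118874 on the plus strand of GRCm38, and Nfib (ENSMUSG00000008575) on the same chromosome from 82290173 to 82705750 on the minus strand. Nfic (ENSMUSG00000055053) lies on chromosome 10 from 81396186 to 81455635 and Nfix (ENSMUSG00000001911) on chromosome 8 from 84699876 to 84800344, both on the minus strand. Their merged exons cover 10.9, 14.96, 6.63 and 7.35 kb, in the same order.

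Total counts per library ran from 516504 to 56275318, and the shallowest library was Fet replicate 1. The library labelled iPax7 replicate 1 stands apart from its group, with Pou5f1, Nanog and Sox2, which mark pluripotent cells, at 550, 511 and 505 CPM (counts per 1000000 counts assigned to genes, after scaling), Pax7 at 0.989 CPM and 10 summed myogenic markers at 54.8 CPM against 1854 and 1860 CPM in the other iPax7 libraries. The group labelled neonatal satellite cells held little of the defining gene Pax7, at 0.495, 4.08 and 5.12 CPM, and summed myogenic markers of 192 to 397 CPM. Beside these, 12 summed endothelial markers were 2689 to 3506 CPM in Neo, 256 to 616 CPM in Fet, 17.2 to 62.6 CPM in Emb and 7.46 to 136 CPM in the iPax libraries, and each of the 12 was present in Neo. Markers of fibroblasts, 10 genes summed, ran from 31985 to 35926 CPM in Fet and from 36024 to 109487 CPM in Neo, against 3030 to 3223 CPM in Emb, 1427 to 1996 CPM in iPax7 and 155 to 506 CPM in iPax3. Immune markers, 8 genes, summed to 138 to 443 CPM in Neo and at most 83.7 CPM elsewhere. These lists moved with the differences between groups given below, their part in those differences was not tested, and in bulk RNA fewer cells of a type and less RNA per cell cannot be told apart.

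The sequence just before a start site is shown for Nfia, which was lower in the ES cell-derived groups, and Nfix, which was higher after the embryonic stage, as RefSeq places the starts on GRCm38.p6. Of the 4 members, 3 had an entry: Nfia, Nfic and Nfix. Each run holds 250 bases read 5′ to 3′ on the gene's strand and ends at the base before the start, and capitals mark matches to a searched motif. The motifs were TGANTCA and TTGGC, each searched on both strands. TGANTCA, with any base at its centre, is a loose pattern for the site of AP-1 (dimers of Jun and Fos proteins, JunB among them). TTGGC is a single arm of the Nuclear factor I site. The runs are Nfia chr4:97581693-97581942, then Nfix chr8:84780083-84780332 and Nfix chr8:84775829-84776078, which precede separate starts of the same gene.
Nfia: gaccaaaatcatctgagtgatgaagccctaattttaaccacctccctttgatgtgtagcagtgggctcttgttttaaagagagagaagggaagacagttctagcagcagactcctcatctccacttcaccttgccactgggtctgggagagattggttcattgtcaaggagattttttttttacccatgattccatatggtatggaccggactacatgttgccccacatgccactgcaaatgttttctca
Nfix, AP-1 match: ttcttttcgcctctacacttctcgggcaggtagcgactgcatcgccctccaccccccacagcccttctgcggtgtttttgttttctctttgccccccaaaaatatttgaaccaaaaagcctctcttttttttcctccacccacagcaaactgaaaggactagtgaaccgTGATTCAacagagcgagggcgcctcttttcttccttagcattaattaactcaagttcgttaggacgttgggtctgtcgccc
Nfix, TTGGC match: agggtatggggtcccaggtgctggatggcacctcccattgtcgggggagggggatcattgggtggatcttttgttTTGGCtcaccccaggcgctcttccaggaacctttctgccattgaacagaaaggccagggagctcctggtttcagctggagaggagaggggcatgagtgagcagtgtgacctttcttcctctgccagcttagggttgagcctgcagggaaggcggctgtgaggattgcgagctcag
The RefSeq start of Nfia used here, 97581943, lies far before 97772734, where the GENCODE gene model starts on the same strand. The Nfia window is therefore not the sequence next to the start of that model. The same holds for Nfix, whose GENCODE model starts at 84800344 on the minus strand. The starts of the printed Nfix windows, 84780082 and 84775828, and those of its other windows lie well inside that model. The Nfic start, 81427173, also lies inside its model, which starts at 81455635. The first Nfix window held TGATTCA from 81 to 75 bases before its start, a motif found in 6.75% of 32851 promoter windows of the same length. That share counts single windows. Nfix had several windows and the one with the match was printed, so a match in any window of such a gene is more frequent. The second Nfix window held TTGGC from 175 to 171 bases before its start, a match found in 41.5% of windows. Nfix had further windows that are not printed. The one before start 84773410 held neither motif. The one before start 84772875 held TTGGC on the other strand, from 5 to 1 bases before its start. No Nfix window but the one before start 84780082 held the AP-1 motif. The whole paired site, TTGGC followed after 5 bases of any kind by GCCAA, was in 0.0365% of windows and in none of the windows of Nfia, Nfic or Nfix. A match says only that these letters are present in the window.

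Across the tissue stages, Nfix, Nfib and Nfic were higher after the embryonic stage, and Nfia did not pass the test at any stage step. Nfix, the fetal regulator, was at 2.32, 3.83 and 33.7 CPM in the Emb libraries, 161, 143 and 172 CPM in Fet, and 250, 254 and 329 CPM in Neo. Every Fet library was above every Emb library and every Neo library above every Fet library, and Emb replicate 3 was far above the other Emb libraries. In Fet against Emb its log2 fold change was 3.58 ± 0.91 (SE; 3 libraries a group, adjusted p = 0.0417), and in Neo against Emb it was 4.39 ± 0.94 (adjusted p = 0.00547). The step from Fet to Neo, 0.81 ± 0.83 on the log2 scale, did not pass the test (adjusted p = 0.678).

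Nfix was the only member called of 4 in Fet against Emb, where 2.89% of the tested genes were called higher, while the libraries of the groups did not overlap for any of the 4, as for 24.1% of the tested genes. The Nfix call was lost, with adjusted p from 0.0803 to 0.132, when Emb replicate 2 or any single Fet library was left out, at log2 fold changes of 3.14 to 3.65. It held without Emb replicate 1, at 3.08 (adjusted p = 0.0389), and without Emb replicate 3, at 5.69 (adjusted p = 0.00218). Neo against Emb was 6.54 for Nfix without Emb replicate 3 (adjusted p = 0.00027). The Fet call was also lost with no filter on low counts (adjusted p = 0.138) and with Emb and Fet fitted alone (adjusted p = 0.0793). Neo against Emb had 3 of 4 members called higher, with 11.7% of tested genes called in that direction, and 3 of 4 without overlap against 28.5% of tested genes. Neo against Fet had 0 of 4 called in edgeR, which called 2.37% of tested genes, and 0 at an unadjusted p under 0.05. DESeq2 called 0 as well, but it gave no adjusted p for Nfix. Without overlap was 1 of 4, Nfix, against 27.9% of tested genes.

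Nfib, a close relative that is also prominent in lung and brain development, was at 59.1, 197 and 184 CPM in Emb, 752, 516 and 642 CPM in Fet, and 671, 497 and 529 CPM in Neo. The Fet and Neo ranges overlapped and both lay above all Emb libraries. The log2 fold change was 1.95 ± 0.63 in Neo against Emb (adjusted p = 0.0422) and 2.12 ± 0.64 in Fet against Emb, which missed the threshold in edgeR (adjusted p = 0.0707). The Fet value of Nfib was called by DESeq2 (adjusted p = 0.0135), with counts thinned to 1 depth (adjusted p = 0.00501) and with Emb and Fet fitted alone (adjusted p = 0.0305). The Neo call for Nfib was lost when any one of the 6 libraries was left out (adjusted p 0.0608 to 0.0972).

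Nfic was at 11.3, 60.7 and 30.9 CPM in Emb, 152, 79.0 and 89.0 CPM in Fet, and 184, 103 and 224 CPM in Neo. All Fet and Neo libraries lay above all Emb libraries. Its log2 fold change was 2.31 ± 0.55 in Neo against Emb (adjusted p = 0.00896), a call that stayed in all 6 fits with a library left out and became 3.01 without Emb replicate 2 (adjusted p = 0.00470). In Fet against Emb it was 1.62 ± 0.54, not called in edgeR (adjusted p = 0.0930) and called by DESeq2 (adjusted p = 0.0350). Nfia was at 31.8, 163 and 198 CPM in Emb, 386, 225 and 249 CPM in Fet, and 152, 208 and 236 CPM in Neo. Only Emb replicate 1 set it apart from the Neo range, and its log2 fold changes were 1.123 ± 0.81 in Fet against Emb (adjusted p = 0.480) and 0.60 ± 0.80 in Neo against Emb (adjusted p = 0.645). Emb replicate 1 was the lowest Emb library for each of the 4 members.

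**Figure D1:**
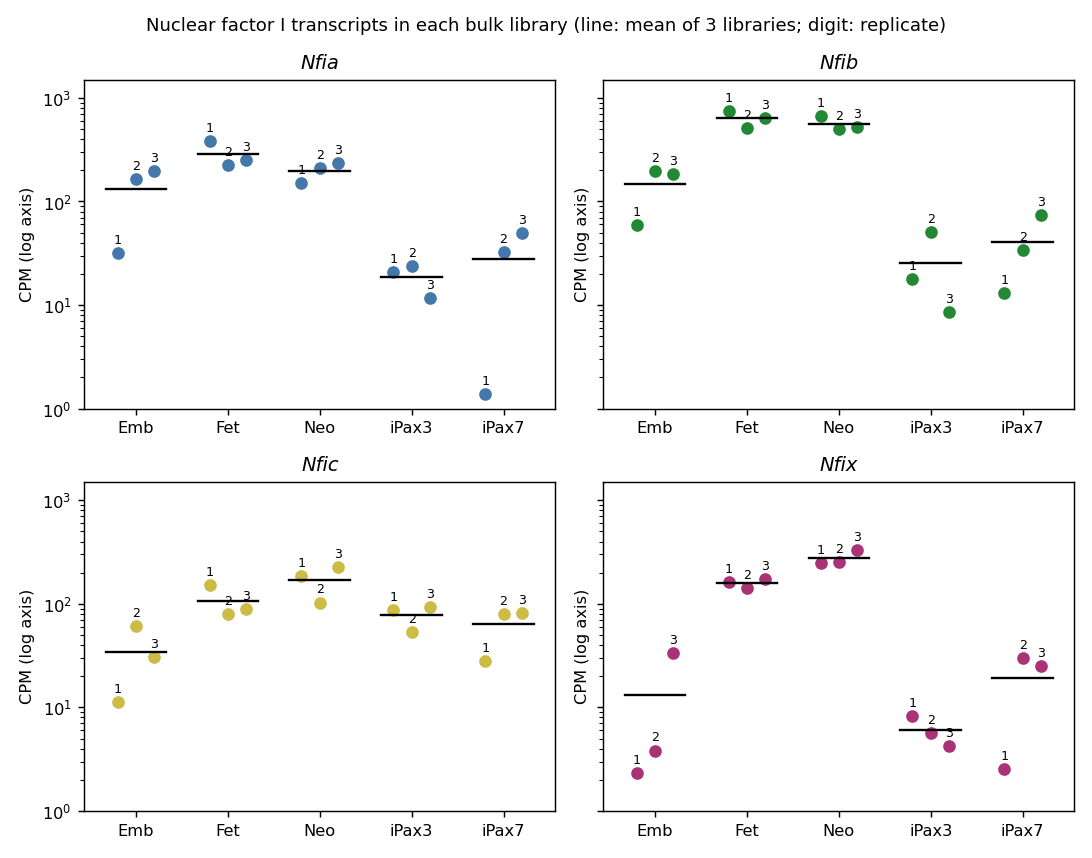
CPM (log axis) of each member in each of the 15 bulk libraries, with the replicate number above each point and the mean of 3 libraries as a line. Nfix sits between 143 and 329 CPM in Fet and Neo and at 33.7 CPM or less in every other library.

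The ES cell-derived groups held less Nfia and Nfib than every tissue stage in group means, less Nfix than Fet and Neo, and Nfic within the range of the tissue libraries. In iPax3, Nfia was at 20.9, 23.7 and 11.6 CPM, and in iPax7 at 1.39, 32.5 and 49.1 CPM. Only iPax7 replicates 2 and 3 reached the level of the lowest Emb library, and all 6 were below all Fet and Neo libraries. Nfib was at 17.9, 50.3 and 8.49 CPM in iPax3 and at 13.0, 33.9 and 74.1 CPM in iPax7. Here too only iPax7 replicate 3 exceeded an Emb library, and every iPax library was far below the lowest Fet or Neo value, 497 CPM.

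Against Emb, iPax3 had 2 of 4 members called lower, with 7.64% of tested genes called lower, and the same 2 did not overlap, against 44.9% of tested genes. The log2 fold change was -2.81 ± 0.85 for Nfia (adjusted p = 0.0357) and -2.52 ± 0.65 for Nfib (adjusted p = 0.0157). Both calls depended on single libraries, and without iPax3 replicate 2 the Nfib value was -3.45 (adjusted p = 0.00434). The Nfia call was lost without any one iPax3 library, without Emb replicate 2 and without Emb replicate 3 (adjusted p 0.0825 to 0.152), and with the replicate number as a block (adjusted p = 0.0801). The Nfib call was lost without iPax3 replicate 1, iPax3 replicate 3 or Emb replicate 2 (adjusted p 0.0504 to 0.0819).

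In iPax3 against Fet, 3 of 4 members were called lower, with 5.68% of tested genes called lower, and the same count did not overlap, against 51.4%. The log2 fold changes were -3.93 ± 0.90 for Nfia (adjusted p = 0.0136), -4.64 ± 0.71 for Nfib (adjusted p = 0.000633) and -4.70 ± 0.96 for Nfix (adjusted p = 0.00626). The Nfib call stayed in every fit with a library left out, and without iPax3 replicate 2 it was -5.57 (adjusted p = 0.000256). Nfia lost its call without any one iPax3 library (adjusted p 0.0613 to 0.104) and Nfix without iPax3 replicate 3 (adjusted p = 0.0596). In iPax3 against Neo, 3 of 4 were again called lower, with 11.3% of tested genes called lower, and all 4 did not overlap, against 52.9%. The Neo values were -3.40 ± 0.88 for Nfia (adjusted p = 0.0133), -4.47 ± 0.71 for Nfib (adjusted p = 0.000425) and -5.51 ± 0.99 for Nfix (adjusted p = 0.00129). The Nfib value against Neo was -5.39 without iPax3 replicate 2 (adjusted p = 0.000185). Without any one iPax3 library the Nfia value against Neo had an adjusted p of 0.05002 to 0.0794.

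Nfix was at 8.26, 5.70 and 4.27 CPM in iPax3 and at 2.56, 29.8 and 25.2 CPM in iPax7. These values lay within the Emb range of 2.32 to 33.7 CPM, and neither iPax3 against Emb (log2 fold change -1.125 ± 0.83, adjusted p = 0.381) nor iPax7 against Emb (0.53 ± 0.83, adjusted p = 0.711) passed the test. Without Emb replicate 3 both values changed: iPax3 against Emb became 1.003 (adjusted p = 0.335) and iPax7 against Emb 2.67 (adjusted p = 0.0327), higher than Emb. The order of group means for Nfix was iPax3, Emb, iPax7, Fet and Neo, and the 3 lowest groups overlapped one another. For Nfia and Nfib the order was iPax3, iPax7, Emb, Neo and Fet. For both genes iPax3 and iPax7 overlapped, iPax7 and Emb overlapped, and Neo and Fet overlapped. For Nfia, Emb and Neo overlapped as well.

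In iPax7 against Emb, 0 of 4 members were called in edgeR, where 14% of tested genes were called, while 2 of 4, Nfia and Nfib, had an unadjusted p under 0.05 and were called lower by DESeq2. All 4 overlapped, against 33% of tested genes without overlap. The log2 fold changes were -2.25 ± 0.84 for Nfia (adjusted p = 0.0849) and -1.87 ± 0.63 for Nfib (adjusted p = 0.0607). Without Emb replicate 1 these became -2.70 (adjusted p = 0.0294) and -2.23 (adjusted p = 0.0243), and Nfib was also called without iPax7 replicate 3, at -2.58 (adjusted p = 0.0301). Without the library labelled iPax7 replicate 1 they were -1.67 (adjusted p = 0.0645) and -1.43 (adjusted p = 0.161).

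In iPax7 against Fet, 2 of 4 members were called lower, with 2.75% of tested genes called lower, and 3 of 4 did not overlap, against 34.3%. Nfib was lower by a log2 fold change of -3.98 ± 0.69 (adjusted p = 0.00315) and Nfia by -3.37 ± 0.88 (adjusted p = 0.0465), while Nfix at -3.04 ± 0.89 missed the threshold (adjusted p = 0.0728). The Nfia call was lost without iPax7 replicate 2 or 3 or any single Fet library (adjusted p 0.0629 to 0.143) and with the replicate number as a block (adjusted p = 0.0509). Without the library labelled iPax7 replicate 1, Nfia was at -2.79 (adjusted p = 0.0123), Nfib at -3.55 (adjusted p = 0.0106) and Nfix at -2.51 (adjusted p = 0.136). Without iPax7 replicate 3, Nfia was at -4.06 (adjusted p = 0.0629) and Nfib at -4.71 (adjusted p = 0.00251).

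In iPax7 against Neo, 3 of 4 members were called lower, with 8.37% of tested genes called lower, and all 4 did not overlap, against 41.2%. The values were -2.84 ± 0.86 for Nfia (adjusted p = 0.0334), -3.81 ± 0.69 for Nfib (adjusted p = 0.00176) and -3.85 ± 0.92 for Nfix (adjusted p = 0.0104). Without iPax7 replicate 2, Neo replicate 2 or Neo replicate 3 the Nfia call was lost (adjusted p 0.0619 to 0.0940). Without the library labelled iPax7 replicate 1 all 3 stayed called, at -2.26 (adjusted p = 0.0172), -3.37 (adjusted p = 0.00614) and -3.31 (adjusted p = 0.0226). Without iPax7 replicate 3, Nfia was at -3.57 (adjusted p = 0.0384) and Nfib at -4.58 (adjusted p = 0.00121).

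Nfic lay nearest to the tissue levels, at 86.5, 53.7 and 93.7 CPM in iPax3 and 28.1, 80.4 and 82.1 CPM in iPax7. It passed the edgeR test with all libraries against none of Emb, Fet and Neo in either group, and its log2 fold changes ran from -1.42 ± 0.54 in iPax7 against Neo (adjusted p = 0.0733) to 1.18 ± 0.53 in iPax3 against Emb (adjusted p = 0.137). The second of these was called higher, at 1.91, without Emb replicate 2 (adjusted p = 0.0393). Nfic was called lower than Neo in iPax3 with thinned counts, at -1.56 (adjusted p = 0.0224), and with the groups fitted alone, at -1.15 (adjusted p = 0.0435). In iPax7 it was called lower than Neo by DESeq2, at -1.59 (adjusted p = 0.0269), and with thinned counts, at -1.57 (adjusted p = 0.0240). Between iPax7 and iPax3, 0 of 4 members were called in edgeR, which called 0.074% of tested genes, and 0 had an unadjusted p under 0.05. DESeq2 called 0 as well, but it gave no adjusted p for Nfix. All 4 overlapped between iPax7 and iPax3, against 18.8% of tested genes without overlap. The order of group means for Nfic was Emb, iPax7, iPax3, Fet and Neo, and each group overlapped its neighbours in that order. The largest of the 4 values between iPax7 and iPax3 was that of Nfix, 1.66 ± 0.84 on the log2 scale (adjusted p = 0.887).

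**Figure D2:**
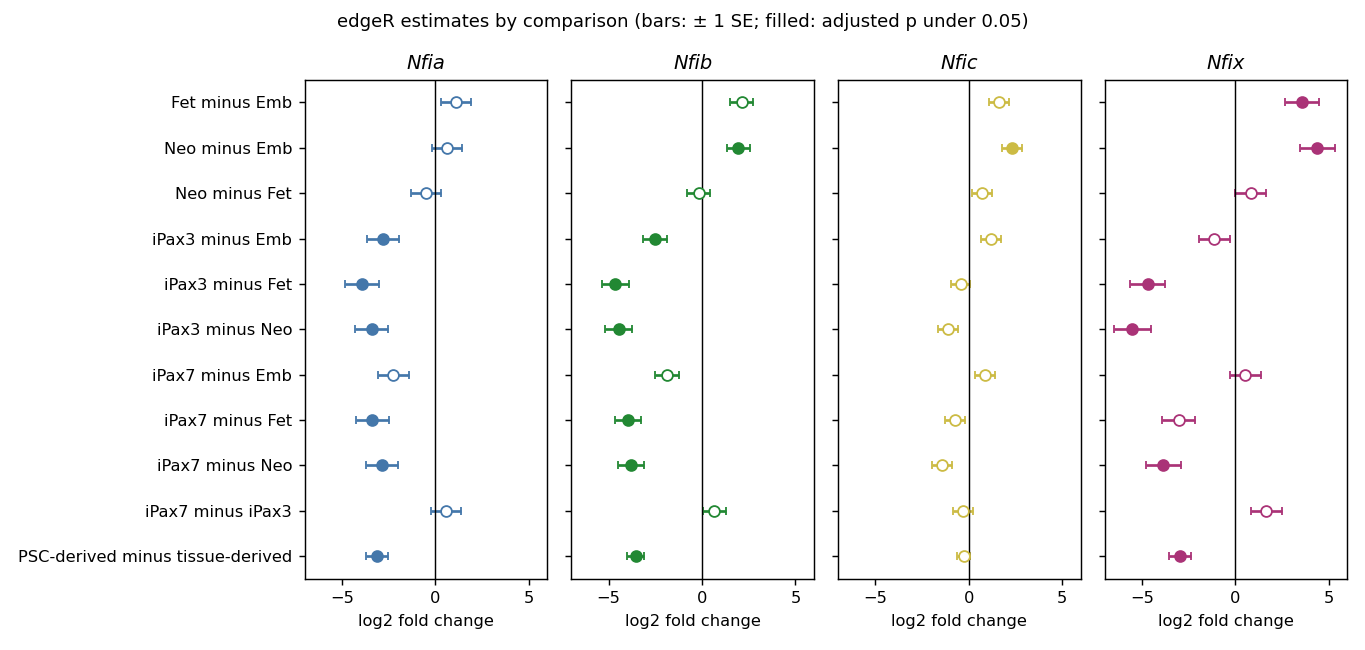
Log2 fold change of each member in the 11 comparisons (first group minus second), with bars of 1 SE and filled points where the edgeR adjusted p was under 0.05. The points of Nfia, Nfib and Nfix lie left of 0 wherever an ES cell-derived group meets Fet or Neo, and no point of Nfic in those rows is filled.

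With both ES cell-derived groups set against the 3 tissue groups together, 3 of 4 members were called lower, with 11.7% of tested genes called lower. The log2 difference of group means was -3.10 ± 0.59 for Nfia (adjusted p = 0.00134), -3.55 ± 0.46 for Nfib (adjusted p = 5.55e-05) and -2.95 ± 0.60 for Nfix (adjusted p = 0.00207). Without Emb replicate 3 the Nfix value was -2.24 (adjusted p = 0.000948). These 3 calls stayed in each of the 15 fits with a library left out, without the libraries iPax7 replicate 1 and Fet replicate 1 together, and without the Neo group, whose Nfix value was then -2.07 (adjusted p = 0.0420). Nfic was at -0.28 ± 0.34 (adjusted p = 0.593), and its sign changed, to 0.23, without Neo. No member was free of overlap over the 15 libraries, against 8.06% of tested genes, and the median of the 4 log2 values was -3.03 beside 0.29 over all tested genes. With no filter on low counts, 9 of the 20 calls of this and the earlier comparisons were lost, none of them in the contrast of ES cell-derived with tissue groups. This comparison shares its libraries with the ones above and is not a separate set of data.

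Per length, the make-up of the family differed between the groups as well as its amount. The members' levels summed to 16.02 ± 1.46 CPM per kb in iPax3 and 17.4 ± 10.4 in iPax7 (SD, n = 3). The sums were 28.8 ± 17.3 for Emb, 107 ± 22.3 for Fet and 120 ± 16.6 for Neo. Nfic made up 72.7% ± 15.3 of the summed level in iPax3 and 60.5% ± 13.9 in iPax7, while its shares among the tissue stages were 18.4% ± 6.27 (Emb), 14.8% ± 2.43 (Fet) and 21.1% ± 5.20 (Neo). The lowest share of Nfic in an iPax library, 49.0%, was above the highest in a tissue library, 24.97%. In Emb the largest parts were Nfia (39.4% ± 6.45) and Nfib (36.7% ± 6.94), and in Fet Nfib (40.1% ± 1.65). The share of Nfix was 5.48% ± 5.35 for Emb, 20.7% ± 3.38 for Fet and 31.6% ± 3.02 for Neo, with every Neo library above every Fet library, and was 5.14% ± 1.49 in iPax3 and 12.9% ± 6.37 in iPax7.

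**Figure D3:**
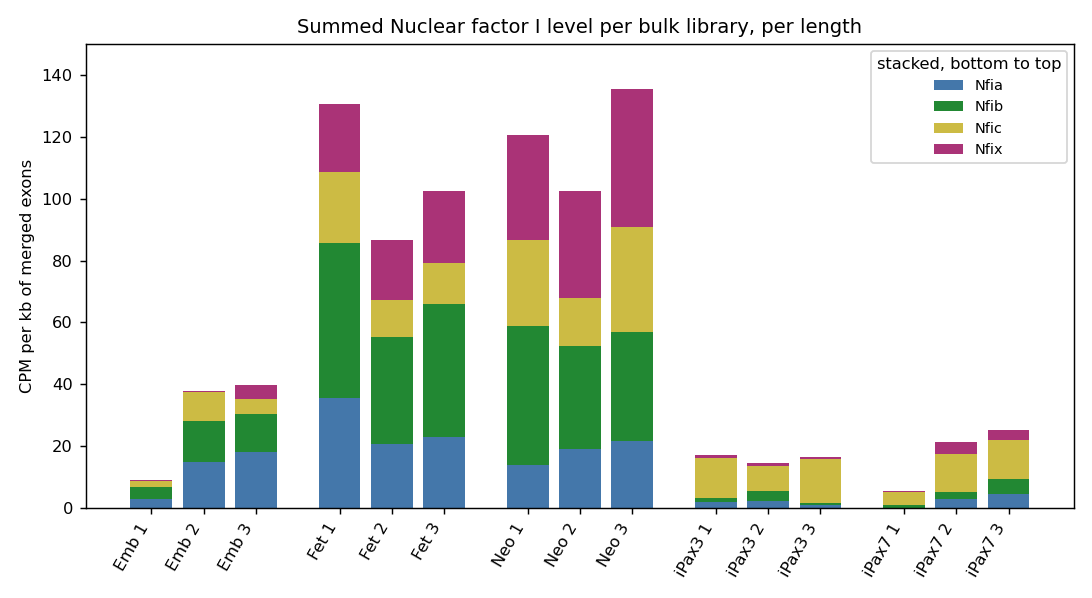
Stacked levels of the 4 members in CPM per kb of merged exons for each bulk library. The Fet and Neo columns reach 86.5 to 136 CPM per kb, the Emb columns 8.89 to 39.8 and the iPax columns 5.58 to 25.3, of which Nfic is the largest part.

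Overlapping genes on the other strand could add reads to the members, since the strand setting of the counting is not given in the sources used here. Shared exon sequence was small: 4 bases between Nfia and E130114P18Rik, 72 between Nfic and Gm16104, 4 between Nfix and Lyl1, and 137 between Nfix and G430095P16Rik. The last was at 5.43 CPM in Emb, where Nfix was at 13.3 CPM in the mean, and at 0.155, 1.301, 0.550 and 0 CPM in the iPax3, iPax7, Fet and Neo means. Gm16104 was at 0.249 CPM or less in every group mean. Lyl1 was at 5.22 CPM in the Neo mean, where Nfix was at 278 CPM, and at 0.444 CPM or less in the others. E130114P18Rik was at 20.3 CPM in the Emb mean, where Nfia was at 131 CPM, and at 1.87 CPM or less in the others.

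A list of 25 genes tied to Nfix in muscle held its regulators, partners and reported targets. It was compiled from general knowledge with earlier results of these data known, so its counts are a description. In Fet against Emb, 3 were higher and 0 lower (3.65% of tested genes called either way), and in Neo against Emb 4 were higher and 3 lower (20.1%). JunB, an AP-1 protein placed upstream of Nfix in fetal myoblasts, was the member of the list with the smallest adjusted p in those comparisons. Junb was at 1.16, 0.46 and 0.51 CPM in Emb, 116, 52.5 and 56.1 CPM in Fet, and 583, 353 and 550 CPM in Neo. It rose by 6.69 ± 0.50 on the log2 scale from Emb to Fet (adjusted p = 2.94e-06) and by 2.76 ± 0.41 from Fet to Neo (adjusted p = 0.00203), the single call of the list in that step (2.37% of tested genes). Junb is also an immediate early gene that cell dissociation can induce, and how far the sort contributed was not tested.

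In iPax3, Junb was at 17.5, 24.1 and 16.6 CPM and in iPax7 at 14.2, 14.46 and 8.42 CPM, between the Emb and Fet ranges with no overlap. Junb was called higher than Emb in both (log2 fold changes 4.78 ± 0.47 and 4.13 ± 0.46). Nfix was not called in either, and a difference between the genes was not tested. Mef2d, a muscle co-regulator, was at 13.6, 20.02 and 25.2 CPM in Emb and 60.6 to 125 CPM in the Fet and Neo libraries, with 1.70 ± 0.35 in Fet against Emb (adjusted p = 0.0136). It was also higher than Emb in iPax3 (1.89 ± 0.35) and iPax7 (1.87 ± 0.35). Col15a1, a basement membrane collagen made by connective tissue and vessel cells, had the largest change among the called genes of the list in Fet against Emb, from 0.51 to 2.94 CPM in Emb to 175, 276 and 262 CPM in Fet (7.46 ± 1.05, adjusted p = 0.00103).

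Against Emb, the list had 4 higher and 3 lower in iPax3 (17% of tested genes called either way) and 3 higher and 0 lower in iPax7 (14%). Against Fet it had 1 higher and 5 lower in iPax3 (8.53%) and 0 higher and 2 lower in iPax7 (3.7%). Against Neo it had 4 higher and 7 lower in iPax3 (22.6%) and 4 higher and 3 lower in iPax7 (18.2%). In the contrast of ES cell-derived with tissue groups 3 were higher and 5 lower (28.1%), and between iPax7 and iPax3 only Pax7 was called. The Pax7 counts were not split into the transcripts of an inducing factor and those of the cell's own gene.

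Sox6 and Nfatc4, transcription factors with roles in setting muscle fibre type, were low in iPax3 together with Nfia, Nfib and Nfix. Sox6 was at 2.28, 1.81 and 1.55 CPM in iPax3 and at 13.2 to 31.3 CPM in all tissue libraries. Its log2 fold change was -3.66 ± 0.98 in iPax3 against Fet (adjusted p = 0.0283). Nfatc4 was at 1.23, 6.91 and 0.16 CPM in iPax3 and at 33.3 to 84.6 CPM in the tissue libraries (-4.42 ± 0.96 against Fet, adjusted p = 0.0080). Myf5, an early myogenic determination factor, was at 283, 170 and 292 CPM in iPax3 and 0.82 to 35.0 CPM in the bulk tissue libraries. It was so higher in iPax3 than in Emb, Fet and Neo. In the single-cell libraries described below, Myf5 was instead lower in iPax3 than in adult cells, at 14.1 and 43.9 CPM. Sox6 was at 2.11 and 2.66 CPM there, with a ratio interval of 0.49 to 1.35, and Nfatc4 at 0 and 0.89 CPM. Myh3, the embryonic myosin heavy chain, was at 103 to 234 CPM in Emb and Fet and at 19.2, 3.92 and 3.31 CPM in Neo. It was called lower in Neo against Emb (-4.11 ± 1.28, adjusted p = 0.0385) and not in Neo against Fet (adjusted p = 0.0971), and the summed myogenic markers were low in Neo too. Myh7, the slow myosin, had no count in any Neo library and 0 to 12.4 CPM in all others.

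By the root mean square difference of centred log2 CPM over the 15 libraries, among 10920 genes of at least 5 CPM in the mean, the genes most like Nfix were Thbs2 (0.82), Col16a1 (0.83) and Col5a2 (0.95). These encode a matricellular protein and collagens, and their levels in Emb, Fet and Neo were 22.9, 550 and 883 CPM for Thbs2 and 155, 1625 and 2447 CPM for Col5a2. Within its own family, the member nearest to Nfix was Nfib, at 1.42. The listed genes were picked as the closest of 10920, so their lying closer than relatives was nearly fixed by that choice. The same held for every member of the family and says nothing particular about Nfix. The 3 genes most like Nfia were Tspan18 (0.66), Tbx15 (0.68) and Rbms3 (0.70). Those most like Nfib were Tgfbr3 (0.48), Nrp1 (0.69) and Mamstr (0.74), the last a co-activator of Mef2c. Those most like Nfic were Mbnl2 (0.54), Dock9 (0.56) and Mmp14 (0.56), and within the family the closest pair was Nfia and Nfib, at 0.91. These are descriptions over 15 libraries that share their groups and markers of other cell types.

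The single-cell libraries allowed iPax3 cells to be set beside adult Pax7-ZsGreen cells, 1 library each, with no test between conditions. Cells numbered 579 adult, with a median of 10765 UMIs (unique molecular identifiers, 1 per captured transcript), and 2931 iPax3, with a median of 11716. The libraries shared 1 cell barcode. A further deposit under an iPax3 label held all 2931 iPax3 barcodes and 577 of the 579 adult ones at greater depth, so it was not counted as another sample. Summed over cells, Nfix was at 73.6 CPM in adult cells (here a share of all UMIs in the cells, 582 UMIs, 95% exact Poisson interval 67.7 to 79.8) and at 1.59 in iPax3 cells (66 UMIs, 1.23 to 2.02), a ratio of 46.4 (35.9 to 60.8). All intervals given for UMIs cover counting error only.

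Nfia was at 61.7 CPM in adult and 11.4 in iPax3 cells (ratio 5.41, interval 4.76 to 6.15), and Nfib at 97.1 and 16.4 (5.94, 5.35 to 6.59). Nfic differed least, at 91.6 and 44.8 (2.04, 1.87 to 2.23). The ratios of all 4 members were past 2-fold, but the interval of Nfic spans 2-fold, and over the 3327 iPax3 cells of the deeper deposit its ratio was 1.92 (1.78 to 2.07). At least 2-fold lower in iPax3 cells were 25.1% of 13015 genes with at least 20 UMIs over both libraries. The median log2 ratio of iPax3 over adult was -2.50 for the members and 0.36 for those genes. With cells under 5% mitochondrial UMIs, which keeps 805 of the iPax3 cells, the ratios were 8.24 for Nfia, 9.52 for Nfib, 2.11 for Nfic and 82.8 (48.0 to 156) for Nfix. Of the family's UMIs, Nfic made up 60.4% in iPax3 cells (exact binomial 95% interval 58.7 to 62.1) and 28.3% in adult cells (26.5 to 30.0), and Nfix 2.14% and 22.7%.

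**Figure D4:**
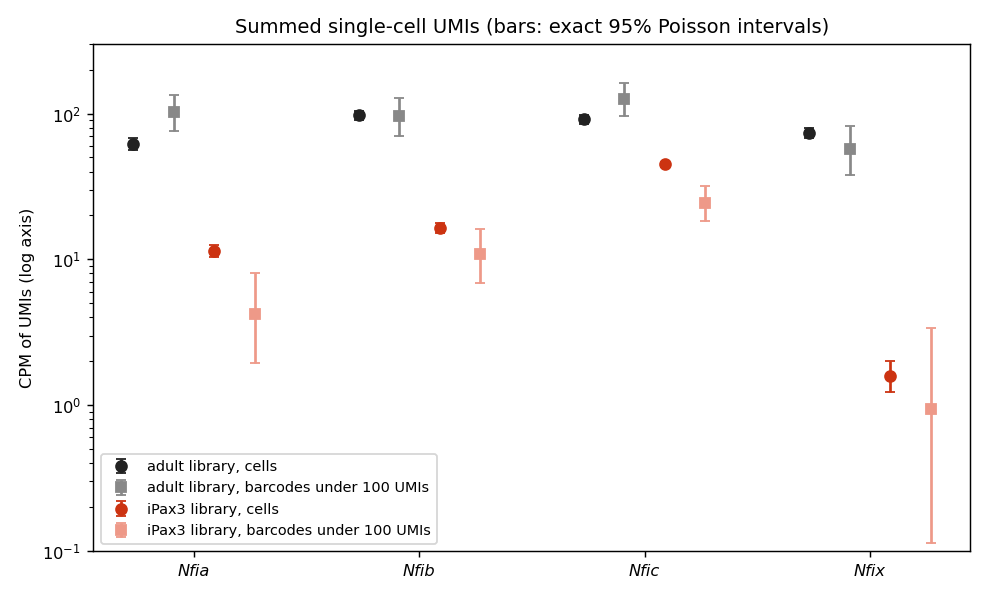
CPM of summed UMIs (log axis) of each member in cells (circles) and in barcodes of under 100 UMIs (squares) of each library, with exact 95% Poisson intervals. In the adult library the barcodes without a cell lie near the cells, and in the iPax3 library at or below them.

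At least 1 UMI of Nfix was found in 54.4% of adult cells and 2.12% of iPax3 cells, and after each cell was thinned to 4000 UMIs in 24.3% of 544 adult cells and 0.682% of 2931 iPax3 cells (35 adult cells were too shallow). The thinned shares were 24.3% and 4.81% for Nfia, 34.2% and 6.11% for Nfib, and 29.4% and 15.8% for Nfic. No member was seen in 27.9% of thinned adult cells and in 75.2% of thinned iPax3 cells, and all 4 members in 2 adult cells and 0 iPax3 cells.

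RNA outside cells limits what the adult values say about single cells. Barcodes of under 100 UMIs in the adult library held 102 CPM of Nfia, 95.7 of Nfib, 126 of Nfic and 57.0 of Nfix, at about the level of the cells or above it, and Pax7 stood at 179 there and 146 in cells. In the iPax3 library the same barcodes held 4.23, 10.8, 24.4 and 0.940, and the Nfix value there rests on 2 UMIs. Adult cells with a Pax7 UMI (431) and without one (148) had Nfix at 75.5 (69.1 to 82.4) and 62.5 (49.0 to 78.6) CPM, with overlapping intervals, as for the other members. The adult library also held 600 CPM of the 12 endothelial markers, 1820 of the 10 fibroblast markers and 1017 of the 8 immune markers, against 13.9, 63.3 and 4.23 in iPax3 cells, and 1022 of the 10 myogenic markers. Their part in the adult levels of the members was not tested.

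Within the iPax3 cells, those with at least 3 UMIs of Myog, the regulator that marks cells entering differentiation, held less Nfia than cells with none, and in the deeper deposit more Nfix. Nfia did not follow Myog in order. It was at 11.8 CPM (10.3 to 13.5) in 1414 cells with no Myog UMI, 13.6 (11.8 to 15.6) in 903 cells with 1 or 2, and 7.12 (5.51 to 9.06) in 614 cells with at least 3. Only the last class stood apart, and over all 1517 cells with any Myog UMI Nfia was at 11.1 (9.83 to 12.5), overlapping the cells with none. In the deeper deposit of the same cells, Nfia was at 13.4 (12.6 to 14.4), 14.2 (13.2 to 15.3) and 7.79 (6.83 to 8.84) in the same classes.

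Nfix was at 1.15 CPM (0.70 to 1.77) with no Myog UMI, 1.74 (1.14 to 2.55) with 1 or 2 and 2.16 (1.32 to 3.33) with at least 3. These rest on 20, 26 and 20 UMIs and all overlapped, as did the 1.90 (1.39 to 2.54) over cells with any Myog UMI. In the deeper deposit Nfix was at 1.29 (1.03 to 1.61, 83 UMIs), 1.64 (1.303 to 2.03, 82 UMIs) and 2.35 (1.84 to 2.95, 72 UMIs), where the first and last class did not overlap and the middle class overlapped both. Nfib intervals overlapped between the classes in both deposits. Nfic was at 44.0 (41.7 to 46.5) with at least 3 Myog UMIs and 48.7 (47.0 to 50.4) with none in the deeper deposit, and its intervals overlapped in the first. The median depth in the first deposit was 10724.5 UMIs with no Myog UMI, 14103 with 1 or 2 and 11713 with at least 3, so the classes differ in depth as well, and Myog RNA outside cells, 125 CPM in the small barcodes, adds to each class. These are cells of 1 library, with no test over samples.

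**Figure D5:**
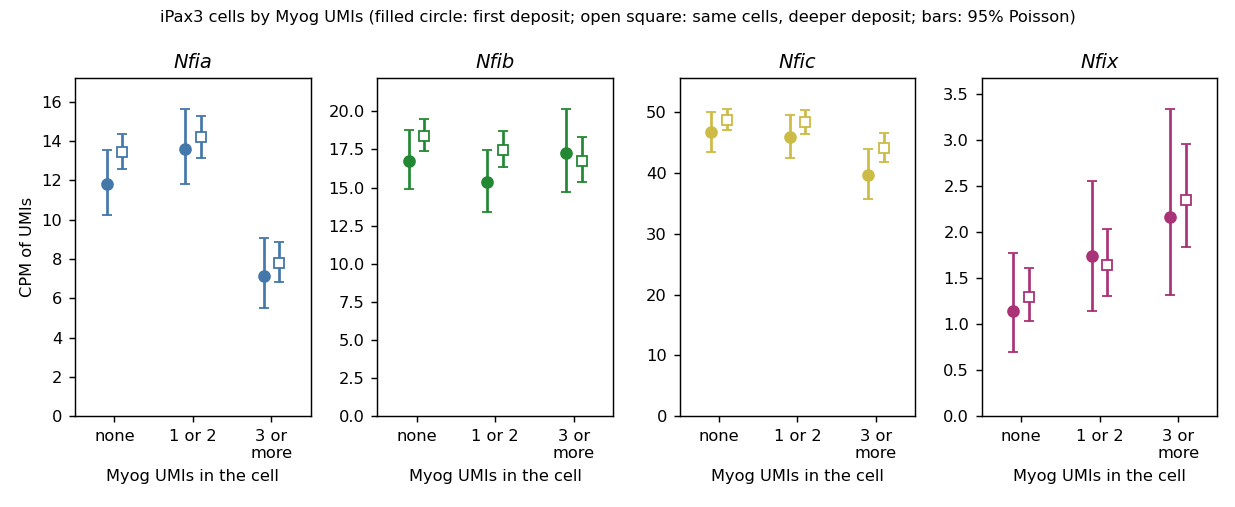
CPM of the UMIs of each member in iPax3 cells with no Myog UMI, with 1 or 2 and with 3 or more, in the first deposit (filled circles) and the deeper deposit of the same cells (open squares), with exact 95% Poisson intervals. Nfia is at 11.8, 13.6 and 7.12 and Nfix at 1.15, 1.74 and 2.16 in the first deposit.

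The authors' deposited table of cluster means gave iPax3 cells in 7 clusters, without saying which cells each cluster holds. Its cluster 1 was highest for Myog, at 5.68 UMIs per cell on the authors' scale, and in the authors' deposited table it also had the highest Nfix, 0.0463, and a low Nfia, 0.0782. A low Nfia was not particular to that cluster. In the authors' deposited table clusters 2 and 6 had less Nfia still, 0.0603 and 0.0729, with Myog at 0.453 and 0.405. Cluster 3 had the highest Nfia (0.275) and Nfib (0.312) in the authors' deposited table, together with the highest Top2a (3.94), a gene of dividing cells. Clusters 7 and 4 came next in the authors' deposited table for Nfia (0.203 and 0.163) and Nfib (0.234 and 0.238). Their Top2a was the lowest in the authors' deposited table, 1.06 and 0.658. In iPax3 cells with no Myog UMI, Nfia was at 11.37 CPM with a Mki67 or Top2a UMI and 13.86 CPM with neither. Nfib was at 16.04 and 19.98 CPM, and the intervals overlapped for both genes. Nfic varied less over the 7 clusters in the authors' deposited table, from 0.445 to 0.638. In its 2 adult clusters the authors' deposited table had Nfix at 0.808 and 0.661 and Nfia at 0.660 and 0.826, while the endothelial gene Pecam1 was at 0.342 and 1.32.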

How the data were processed

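Bulk values are read counts per gene that the authors deposited, made with CASAVA 1.8, HISAT2 2.0.2 and featureCounts 1.4.6 on mm10 per the submitters' processing notes. Annotation, strand and multi-mapping settings are not given in the sources used here. Single-cell values are UMI counts from Cell Ranger 2.2.0 per the same notes, and the deposited cluster tables hold a signal, the authors' scaled mean of UMIs over a cluster's cells. Other deposited columns hold barcodes and gene names. Members and gene lists were chosen with earlier results of these data known.

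Counts were scaled by TMM, and edgeR 4.0.16 under R 4.3.3 was used for the robust quasi-likelihood test, with each group's mean as a coefficient, on 17571 genes and 15 libraries, with Benjamini-Hochberg adjustment over those genes at 0.05. Every adjusted p is from this test unless another is named. It was tested on simulated data. Replicates differed beyond counting error (chi-square over its degrees of freedom 7.70 to 460.4). Symbols and positions came from GENCODE M21, which 47223 of 47728 identifiers matched.

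A barcode counted as a cell with 500 or more UMIs, under 10% of them mitochondrial, and a total reaching 10% of percentile 99 among the top 3000 barcodes, and doublets were not removed. Named genes were the 4 members, any of the 25 listed genes with those past the test first, and the 3 genes most like each member. Alternatives were RLE size factors, DESeq2 1.42.0, no filter, a replicate block, groups fitted alone, thinning to 516504 counts, leaving out libraries and other cell filters.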

Additional observations from a re-analysis of the deposited data

How the results depend on the processing

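Of 20 calls over 44 member comparisons, all kept their direction in every alternative run that gave an adjusted p. Of these calls, 10 stayed called in each such run and 10 were lost in at least 1. Of the 24 others, 10 were called in at least 1. DESeq2 gave no adjusted p for Nfix, so the Nfix calls counted here were not put to DESeq2. The causes were not tested. With no filter on low counts, members called fell to 0 in Fet against Emb and in iPax3 against Emb, and to 1 in iPax7 against Fet and in iPax7 against Neo. Replicate numbers did not pair libraries (correlations of same-numbered residuals -0.331 to 0.0767), and the replicate block left 1 in iPax3 against Emb and 1 in iPax7 against Fet and moved no other count by over 1.5 times. Thinned counts gave 2 in Fet against Emb and 2 in iPax7 against Emb, as did DESeq2, which gave no adjusted p for Nfix. With the groups compared alone there was 1 in Neo against Fet, 1 in iPax3 against Emb and 1 in iPax7 against Fet.

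With 1 library left out, where an arm of 2 libraries shares the spread of the other groups, members called ranged from 0 to 1 in Fet against Emb, 0 to 2 in iPax3 against Emb, 1 to 3 in iPax3 against Fet, 0 to 2 in iPax7 against Emb and 1 to 2 in iPax7 against Fet. Signs changed only for values not called. In iPax7 against iPax3, Nfia became -0.19 with thinned counts and ran from -0.14 (without iPax7 replicate 3) to 1.11 with a library left out. Nfib ran from -0.087 (without iPax7 replicate 3) to 1.60 and Nfic from -0.52 to 0.050 (without iPax7 replicate 1), with 0.068 for Nfic without iPax7 replicate 1 and Fet replicate 1 together. Nfix in iPax3 against Emb ran from -1.60 to 1.003, the latter without Emb replicate 3. Nfic in the ES cell-derived against the tissue groups became 0.0033 without iPax7 replicate 1 and Fet replicate 1, and 0.23 without Neo. The last alternatives, those leaving out a pair of libraries or Neo, were chosen after seeing the data.

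The single-cell ratios of iPax3 over adult cells moved under 5% mitochondrial UMIs to 0.121 for Nfia, 0.105 for Nfib and 0.0121 for Nfix, from 0.185, 0.168 and 0.0215, and for Nfib to 0.187 with the deeper deposit. Depth limits Nfix most, at 66 UMIs in iPax3 cells.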
